A study of Mus musculus with 12 samples.

Results

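The striated muscle myosin light chains and their skeletal kinases were examined as 8 genes in C2C12 myotubes, chosen by symbol from the table of read counts through the GENCODE annotation of GRCm38. They comprised the light chain genes Mylpf, Myl2, Myl1, Myl3, Myl4 and Myl6b and the kinase genes Mylk2 and Mylk4, and all 8 were found among the 55487 genes listed, of which 29620 had a count in any library. C2C12 is an immortalised mouse myoblast line that fuses into myotubes when serum is lowered. Myotubes had formed over 5 days in 2% horse serum before a 24 h exposure to medium containing 4% horse serum (6 libraries, numbered 1 to 6) or with 4% STEM (6 libraries, numbered 7 to 12). STEM is a cell-free product secreted by partially differentiated human pluripotent stem cells. It took the place of horse serum, so its addition and the loss of serum cannot be told apart. All libraries came from 1 cell line, and the labels do not say whether they were separate cultures, so p-values measure the spread between these libraries, which may be technical.

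Each myosin heavy chain carries an essential and a regulatory light chain on its neck, the lever that swings when the motor pulls on actin. Different genes encode the fast skeletal, slow skeletal and ventricular, and atrial and embryonic forms of these chains, and developing muscle carries mixtures of them. In skeletal muscle the regulatory chain is phosphorylated by a calmodulin-dependent kinase, which increases force at low calcium and is not needed to start contraction, in contrast to smooth muscle.

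Library depth ranged from 13285472 to 24536264 counts, and the 8 genes together held 0.449 to 0.693% of the counts in 11 libraries and 0.256% in horse serum library 6. That library stood apart from the other horse serum libraries and is therefore shown separately throughout, with each comparison made on all 12 libraries and again on the 11 others. Levels are given as CPM, read counts scaled to a common normalised library total, and levels of different genes are compared only as CPM per kb of exon. Of the 11 markers of myotubes examined, all passed the filter on low counts, and Acta1 (skeletal actin), Tnnt3 (fast troponin T) and Myh3 (embryonic myosin) each had a median above 1000 CPM in both groups. In library 6 each of the 11 was below the other horse serum libraries, their summed level being 6818 CPM against 11565 to 12597 CPM in libraries 1 to 5 and 9734 to 12083 CPM with STEM. Conversely, 8 of 12 proliferation markers were highest of the horse serum group in library 6 (summed level 1309 CPM against 762 to 1149 CPM in libraries 1 to 5 and 567 to 699 CPM with STEM). For all tested genes, the share with library 6 lowest or highest of the horse serum group was not computed. Mitochondrial transcripts held 3.72 to 4.21% of the counts in libraries 1 to 5, 2.43% in library 6 and 2.54 to 3.29% with STEM. The part of any of these in the values of the light chain genes was not tested. In bulk RNA of this kind, fewer myotubes and less RNA per myotube cannot be told apart.

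Mylpf encodes the fast skeletal regulatory light chain and Myl2 the regulatory chain of slow skeletal and ventricular muscle. Mylpf (ENSMUSG00000030672, GRCm38 chromosome 7, 127208890 to 127214298, plus strand) had the highest level per kb of the 8 genes in all 12 libraries. With horse serum its level was lowest in library 6 at 1371 CPM, with a median of 2907 CPM and a maximum of 3126 CPM. With STEM it ranged from 2114 to 2498 CPM around a median of 2226 CPM. All 6 STEM libraries lay below horse serum libraries 1 to 5, whose lowest value was 2869 CPM, and above library 6. The log2 fold change (STEM over horse serum) was -0.24 over 12 libraries (standard error 0.16, adjusted p = 0.250 from edgeR's quasi-likelihood test). Without library 6 Mylpf fell with STEM by 0.38 on the log2 scale (standard error 0.049, adjusted p = 3.5e-06, edgeR).

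Myl2 (ENSMUSG00000013936, chromosome 5, 122100951 to 122113472, plus strand) was the member with the largest change. With horse serum it had a median of 55.3 CPM and a maximum of 70.7 CPM, and its minimum of 4.36 CPM was that of library 6. With STEM it was between 8.20 and 17.0 CPM with a median of 11.9 CPM, which rests on 133 to 416 counts per library. The STEM range lay wholly between library 6 and the other horse serum libraries, which began at 51.4 CPM. Myl2 fell with STEM in both fits, by 2.03 on the log2 scale over 12 libraries (standard error 0.50, adjusted p = 0.00879, edgeR) and to a log2 fold change of -2.27 without library 6 (standard error 0.19, adjusted p = 4.78e-06, edgeR). The second value is a 4.82-fold lower level with STEM. Over 12 libraries the call was lost with limma-voom (log2 fold change -1.603, adjusted p = 0.144). An antisense gene, Ccdc63, shares 60 exonic bases with Myl2 but did not exceed 5 counts in any library.

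**Figure D1:**
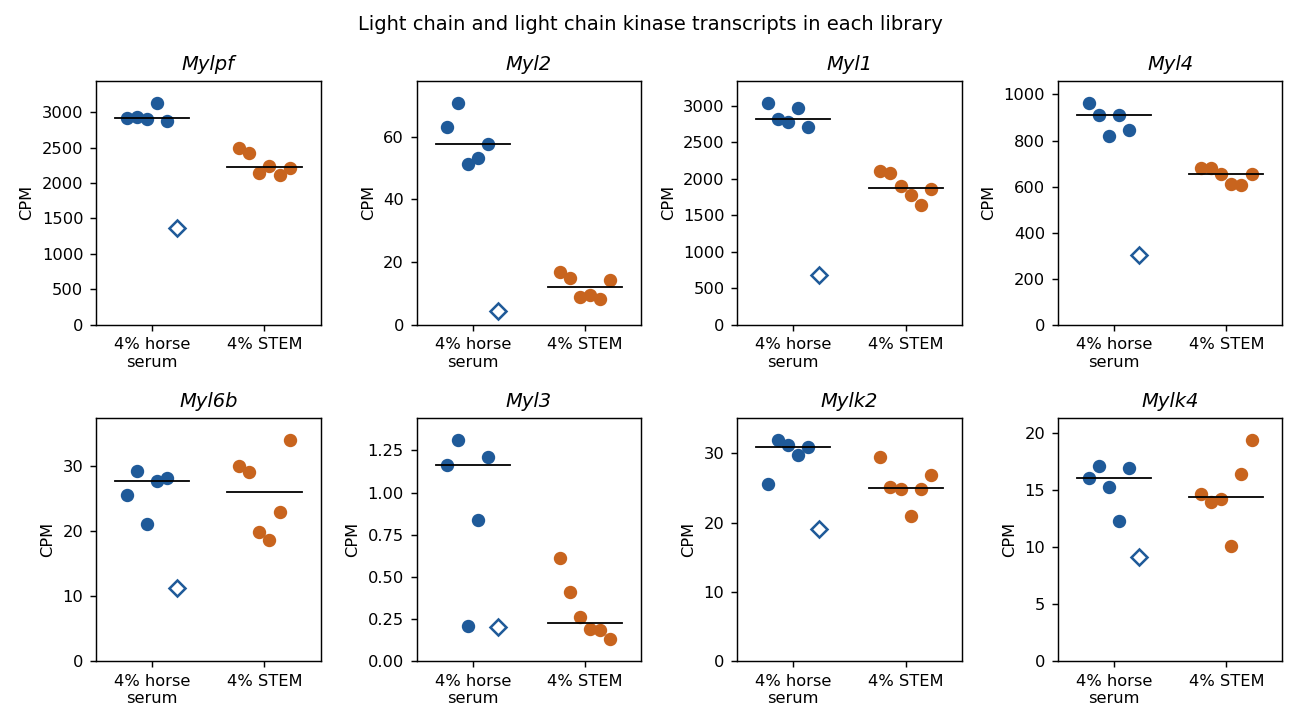
CPM (y axis, starting at 0) of each of the 8 genes in each library, for 4% horse serum and 4% STEM. Filled circles are single libraries, the open diamond is horse serum library 6, and horizontal lines are medians of horse serum libraries 1 to 5 and of the 6 STEM libraries. For Mylpf, Myl2, Myl1 and Myl4 every STEM library lies below horse serum libraries 1 to 5 and above library 6, whereas for Myl6b, Mylk2 and Mylk4 the circles of the groups overlap.

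Among the essential light chains, Myl1 (fast skeletal) and Myl4 (atrial and embryonic) were the abundant transcripts. Myl1 (ENSMUSG00000061816, chromosome 1, 66924295 to 66945404, minus strand) had 677 CPM in library 6, a horse serum median of 2793 CPM and a maximum of 3035 CPM. STEM libraries held 1636 to 2108 CPM with a median of 1877 CPM. They did not overlap with libraries 1 to 5, the lowest of which was at 2703 CPM. Over 12 libraries the estimate was -0.40 on the log2 scale (standard error 0.28, adjusted p = 0.303, edgeR). When library 6 was left out, Myl1 fell with STEM by 0.59 on the log2 scale (standard error 0.059, adjusted p = 1.16e-07), a 1.51-fold lower level.

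Myl4 (ENSMUSG00000061086, chromosome 11, 104550663 to 104595753, plus strand) was likewise lowest in library 6, higher with STEM and highest in horse serum libraries 1 to 5. Its level with horse serum was 303 CPM in library 6, 879 CPM at the median and 962 CPM at most, and with STEM it was 605 to 681 CPM with a median of 654 CPM. Again no STEM library reached the lowest of libraries 1 to 5 (821 CPM). Over 12 libraries the estimate was -0.29 on the log2 scale (standard error 0.22, adjusted p = 0.321, edgeR). Without library 6 Myl4 fell by 0.46 on the log2 scale (standard error 0.049, adjusted p = 2.75e-07).

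Myl6b, an essential chain shared by slow muscle and non-muscle cells, showed no change that passed the test in either fit. It (ENSMUSG00000039824, chromosome 10, 128494157 to 128498685, minus strand) ranged from 11.3 CPM in library 6 through a median of 26.7 CPM to 29.2 CPM with horse serum. With STEM the values spread from 18.6 to 34.0 CPM with a median of 26.0 CPM, so the groups overlapped with and without library 6. STEM differed from horse serum by 0.12 on the log2 scale (standard error 0.22, adjusted p = 0.700, edgeR) and -0.03 without library 6 (standard error 0.16, adjusted p = 0.906). STEM libraries 7, 8 and 12 were high for Myl6b (29.2 to 34.0 CPM) and libraries 9, 10 and 11 low (18.6 to 22.9 CPM), and the same 3 libraries were the high ones for Myl2. Myl6b lies 11 bases from the more abundant essential chain gene Myl6 on the same strand, and the part of reads from Myl6 in its counts was not tested.

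Myl3, the essential chain of slow skeletal and ventricular muscle (ENSMUSG00000059741, chromosome 9, 110741861 to 110769798, plus strand), was barely detected and did not pass the filter on low counts. It had 3 to 20 counts per library with horse serum and 2 to 15 with STEM, or at most 1.31 and 0.612 CPM, respectively. Horse serum libraries 3 (0.212 CPM) and 6 (0.205 CPM) lay within the STEM range of 0.135 to 0.612 CPM, and the other 4 were above it. In fits without the filter the estimate on the log2 scale was -1.32 over 12 libraries (standard error 0.46, adjusted p = 0.0537, edgeR) and -1.52 without library 6 (standard error 0.35, adjusted p = 1.07e-04). These fits rest on very few reads, and the antisense gene Pth1r, with 21 to 90 counts per library, shares 95 exonic bases with Myl3.

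The kinase that phosphorylates the regulatory chain in skeletal muscle is encoded by Mylk2 (ENSMUSG00000027470, chromosome 2, 152911352 to 152923068, plus strand). Its level with horse serum was 19.2 CPM in library 6, 30.3 CPM at the median and 32.0 CPM at most. With STEM it was 21.0 to 29.5 CPM with a median of 25.04 CPM, overlapping libraries 1 to 5, since library 1 was at 25.6 CPM. The estimate over 12 libraries was -0.14 on the log2 scale (standard error 0.11, adjusted p = 0.365, edgeR), and without library 6 Mylk2 fell by 0.23 on the log2 scale (standard error 0.076, adjusted p = 0.0162). Mylk4, a less studied kinase of the same family (ENSMUSG00000044951, chromosome 13, 32700834 to 32783954, minus strand), was at 9.17 CPM in library 6 with a horse serum median of 15.7 CPM and a maximum of 17.1 CPM. Its STEM values of 10.1 to 19.4 CPM, with a median of 14.4 CPM, enclosed those of libraries 1 to 5 (12.3 to 17.1 CPM). For Mylk4 the estimates were 0.04 on the log2 scale (standard error 0.16, adjusted p = 0.881) and -0.07 without library 6 (standard error 0.13, adjusted p = 0.688), neither of which passed the test.

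Over 12 libraries 1 of the 7 tested members was called at an adjusted p of 0.05 or less, Myl2, which was lower with STEM, and 0 were higher. Of all 14175 genes tested, 36.4% were called, 17.4% lower and 18.9% higher. Without library 6, 5 of the 7 members were called, all lower, beside 50.8% of 14267 genes called, 24.5% lower and 26.3% higher. The members' median log2 fold change was -0.24 and -0.38 in the 2 fits, whereas that of all tested genes was 0.01 in both. For none of the 7 did the groups separate over 12 libraries, while 17.2% of all tested genes had no overlap. Without library 6, Mylpf, Myl2, Myl1 and Myl4 separated (4 of 7) beside 33.3% of all tested genes.

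**Figure D2:**
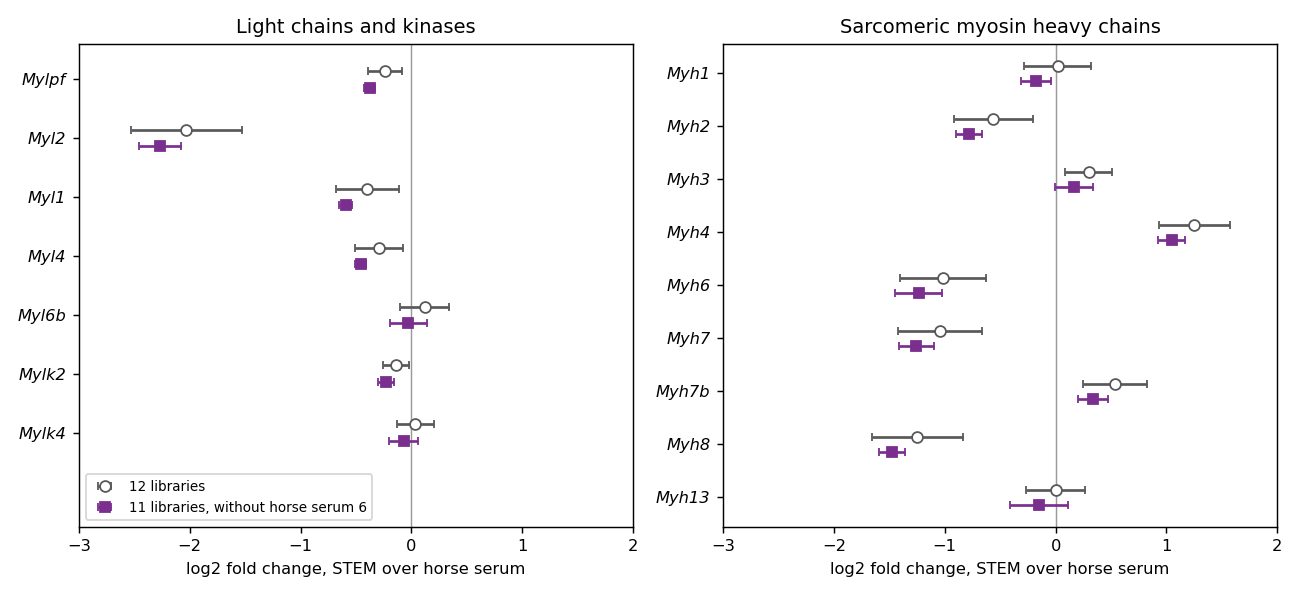
Log2 fold change of STEM over horse serum (x axis) with its standard error (bars) for the tested light chain and kinase genes (left) and the tested sarcomeric myosin heavy chain genes (right). Open circles are fits on 12 libraries and squares are fits without horse serum library 6. The bars are shorter for the squares in all 7 rows on the left, and Myl2 lies farthest from 0 there, at -2.03 and -2.27.

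Horse serum library 6 was the lowest of all 12 libraries for 7 of the 7 tested members, whereas it was the lowest for 19.9% of all tested genes. The size of this gap differed between members. Relative to the median of libraries 1 to 5, Myl2 was 13.2-fold lower, Myl1 4.16-fold, Myl4 3.01-fold, Myl6b 2.46-fold and Mylpf 2.12-fold lower. The kinase genes differed least, Mylk4 by 1.75-fold and Mylk2 by 1.61-fold. For all tested genes the median log2 ratio of library 6 to that median was 0.02. All 9 tested sarcomeric heavy chain genes were also lower in library 6 than in the other horse serum libraries. Relative to the same median they were from 2.12-fold (Myh3) to 8.72-fold (Myh8) lower.

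The order of the members by CPM per kb was Mylpf, Myl1, Myl4, Myl2, Myl6b, Mylk2, Mylk4 and Myl3 in each of horse serum libraries 1 to 5. In each STEM library Myl2 stood sixth, behind Myl6b and Mylk2. Its level was 26.4 to 36.3 CPM per kb in libraries 1 to 5 and 4.21 to 8.70 CPM per kb with STEM, where Mylk2 ranged from 7.13 to 10.005 and Myl6b from 10.1 to 18.4. The ranges of Myl2 and Mylk2 with STEM thus overlapped, although their order did not change within a library. In library 6 Myl2 was also sixth, with Mylk2 ahead of Myl6b. The top 3 genes kept their places in all 12 libraries. The place of Myl2 in this order depends on the length used. The union of exons is 1950 bases for Myl2, 1847 for Myl6b and 2951 for Mylk2. The median coding transcript is 473, 1026 and 2951 bases in the same order, which would raise Myl2 relative to both. The order by that length was not computed.

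Shares within each class of chain were computed per library from the levels per kb, and such shares do not depend on the library total. Myl2 made up 0.917 to 1.30% of the regulatory chain transcripts (Mylpf and Myl2 together) in horse serum libraries 1 to 5, 0.173% in library 6 and 0.211 to 0.368% with STEM. The remainder was Mylpf, at 98.7 to 99.1% in libraries 1 to 5 and 99.6 to 99.8% with STEM. Among the 4 essential chains, Myl1 held 86.4 to 87.6% in libraries 1 to 5, 82.1% in library 6 and 84.7 to 86.1% with STEM. Myl4 held 11.6 to 12.5%, 16.4% and 12.455 to 13.997%, and Myl6b held 0.747 to 1.01%, 1.53% and 1.01 to 1.74% in the same order. With STEM the share of Myl1 was below the range of libraries 1 to 5. For Myl4 and Myl6b the lowest STEM share (12.455% and 1.0066%) was just under the highest of libraries 1 to 5 (12.525% and 1.0128%), so these ranges overlapped at their ends. Library 6 was below all STEM libraries for the share of Myl1 and above all of them for that of Myl4, and within the STEM range for Myl6b. The size of these shares depends on the length used. With coding transcript lengths in place of the union of exons, Myl2 held 1.97 to 2.78% in libraries 1 to 5, 0.374% in library 6 and 0.457 to 0.797% with STEM. Myl4 then held 21.2 to 22.7%, 28.7% and 22.6 to 25.04%, and Myl6b 0.465 to 0.628%, 0.917% and 0.618 to 1.07%.

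Essential and regulatory chains also moved by unequal amounts. The ratio of summed essential to summed regulatory levels per kb was 0.550 to 0.608 in horse serum libraries 1 to 5, 0.308 in library 6 and 0.467 to 0.527 with STEM. Against the summed sarcomeric heavy chains, the regulatory chains stood at a ratio of 4.19 to 4.68 in libraries 1 to 5, 6.72 in library 6 and 2.93 to 4.08 with STEM. The essential chains stood at 2.36 to 2.84, 2.07 and 1.47 to 2.15. For the regulatory chains library 6 and the STEM libraries therefore lay on opposite sides of libraries 1 to 5. The size of these ratios also depends on the length used, here the union of exons.

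**Figure D3:**
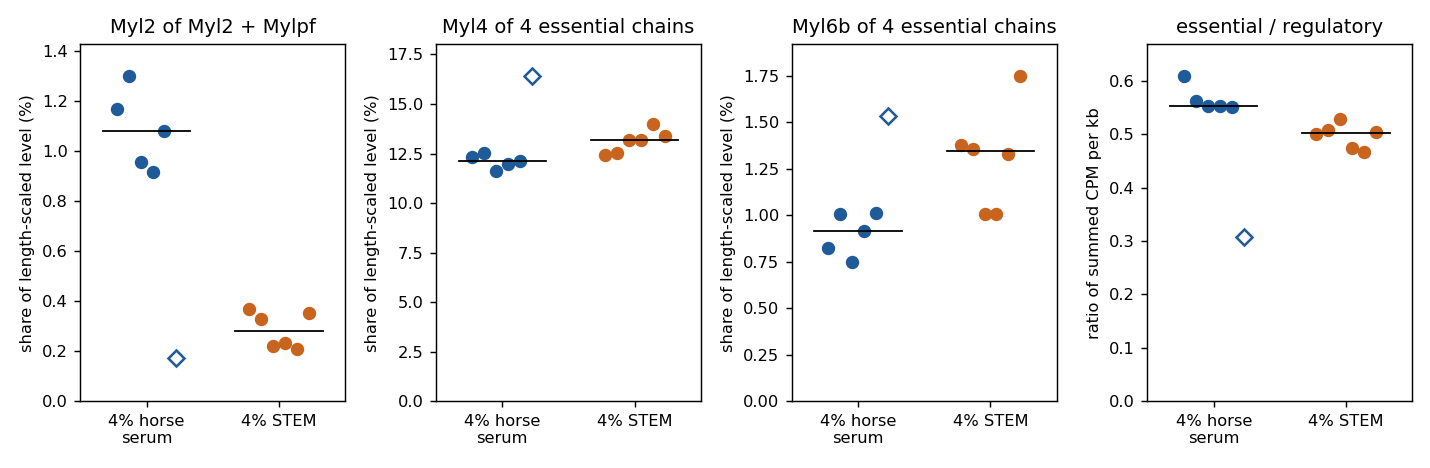
Share of length-scaled level per library (y axes in %) for Myl2 within the regulatory chains and for Myl4 and Myl6b within the essential chains, and the ratio of summed essential to summed regulatory CPM per kb (right). Symbols and lines are as in the plot of CPM by library, and every y axis starts at 0. STEM libraries lie below libraries 1 to 5 for the Myl2 share (0.211 to 0.368% against 0.917 to 1.30%) and for the ratio, and library 6 lies beyond them for both.

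Promoter windows from RefSeq (GRCm38.p6) were found for 7 of the 8 members, with 8 windows of 250 bases before to 50 after a start site. The 250 bases before the start are shown for Myl1 and Mylpf, the members with the highest levels, which were both lower with STEM without library 6. Both are written 5′ to 3′ on the strand of the gene, with capitals marking matches on either strand to the E-box CANNTG, which myogenic bHLH factors bind, or to the MCAT element CATTCC, which TEAD factors bind. Myl1 is at chr1:66945057-66945306 (minus strand) and Mylpf at chr7:127211358-127211607 (plus strand).
Myl1: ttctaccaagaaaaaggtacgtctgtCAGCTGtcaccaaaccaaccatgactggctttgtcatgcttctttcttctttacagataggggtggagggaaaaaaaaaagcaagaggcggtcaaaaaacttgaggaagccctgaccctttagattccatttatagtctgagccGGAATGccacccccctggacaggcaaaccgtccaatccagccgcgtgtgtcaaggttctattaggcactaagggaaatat
Mylpf: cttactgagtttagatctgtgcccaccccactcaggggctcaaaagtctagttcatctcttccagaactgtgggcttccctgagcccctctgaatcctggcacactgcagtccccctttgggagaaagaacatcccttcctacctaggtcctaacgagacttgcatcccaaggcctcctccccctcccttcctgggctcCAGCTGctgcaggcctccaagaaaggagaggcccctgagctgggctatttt
Myl1 held the E-box letters CAGCTG from base -224 and the MCAT letters, on the other strand, from base -80, with bases counted back from the start site. Mylpf held CAGCTG from base -51. An E-box match was present in 7 of the 8 members' windows (all but that of Myl4) and in 72.3% of all 32851 windows of this length, and an MCAT match in 2 (Myl1 and Myl3) and in 14.7% of all. The MEF2 motif matched only in Mylk4 (3.19% of all windows) and the CArG box only in Myl3 (1.63%). None of these matches overlapped in the printed sequences. The start site used for Myl1 lies 87 bases from the nearest GENCODE start, and the start sites of the pair of Myl2 windows lie 7762 and 8227 bases from the nearest GENCODE start, so they are not shown. The start site used for Mylpf is the start of a GENCODE transcript. Both printed sequences lie inside the span of their gene, which begins farther upstream.

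The other light chain genes listed, mostly of non-muscle and smooth muscle myosin, did not move as one group. Of 6 tested entries (Myl12b has 2 gene models), 2 were higher and 3 lower with STEM in both fits. Their median log2 fold change was -0.02 over 12 libraries and -0.05 without library 6. Beside this and the lists below, 17.4% of all tested genes were lower and 18.9% higher over 12 libraries. Without library 6 these shares were 24.5% and 26.3%. Myl6, the ubiquitous essential chain, rose from a median of 619 to 715 CPM (log2 fold change 0.22, adjusted p = 0.00407, edgeR), and Myl9, the smooth muscle regulatory chain, had a log2 fold change of 0.23 (adjusted p = 0.0178). Myl12a, a non-muscle regulatory chain, fell from a median of 434 to 359 CPM (log2 fold change -0.26, adjusted p = 0.00215). Both models of Myl12b were lower as well, with log2 fold changes of -1.12 and -0.28, but how reads were assigned between the models was not tested. The atrial regulatory chain Myl7 was at 0 CPM in all 6 horse serum libraries and did not exceed 0.12 CPM with STEM.

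The other genes of light chain phosphorylation were 9 kinases, calmodulins and phosphatase subunits. Of these, 1 was higher and 3 were lower over 12 libraries, and 1 and 5 without library 6. The smooth muscle kinase gene Mylk rose from a median of 11.5 to 15.8 CPM (log2 fold change 0.56, adjusted p = 0.00152, edgeR), the direction opposite to that of Mylk2 without library 6. The cardiac kinase gene Mylk3 did not pass the test over 12 libraries (log2 fold change -0.44, adjusted p = 0.320) and fell by 0.66 without library 6 (adjusted p = 0.00263). Calm2, Calm3 and the phosphatase subunit gene Ppp1cb fell by 0.24, 0.30 and 0.23 on the log2 scale (adjusted p = 0.00208, 0.00183 and 0.0182).

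The heavy chains that carry these light chains differed by isoform. Of 9 tested, 1 was higher and 1 lower over 12 libraries, and 1 and 4 without library 6, and their median log2 fold change stood at 0.00 and -0.18. Myh4, the fast type IIb chain, rose from a median of 204 to 462 CPM (log2 fold change 1.25, adjusted p = 0.0105, edgeR), and library 6 had 48.0 CPM. Myh8, the perinatal chain, fell from a median of 648 to 250 CPM (log2 fold change -1.25, adjusted p = 0.0357). Myh7, the slow and ventricular chain that pairs with Myl2 and Myl3, had a median of 285 CPM in horse serum libraries, compared with 115 CPM in STEM libraries. Its log2 fold change came to -1.04 over 12 libraries (adjusted p = 0.0513) and -1.26 without library 6 (adjusted p = 9.82e-05). Without library 6, Myh2 and Myh6 fell as well, by 0.78 and 1.23. The most abundant chains, Myh1 and Myh3, passed the test in neither fit (log2 fold changes 0.02 and 0.30, and -0.18 and 0.17 without library 6).

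Of 14 tested thick filament and M-band partners, 1 was higher and 3 were lower over 12 libraries, and 1 and 6 without library 6. The ubiquitin ligase genes Trim63 and Trim55 fell by 0.76 and 0.42 on the log2 scale (adjusted p = 0.00347 and 0.00132, edgeR). Mybph, a myosin binding protein, fell by 0.32 (adjusted p = 0.0296), and Obsl1, a relative of obscurin, rose by 0.50 (adjusted p = 3.85e-05). Ttn and Myom2, both above 1000 CPM, passed the test in neither fit. In library 6 all 14 were below the other horse serum libraries.

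Of 24 muscle transcription factor genes found, 19 were tested, and 3 were higher and 4 lower over 12 libraries, with a median log2 fold change of 0.03. Myog, a bHLH activator of terminal differentiation, fell from a median of 912 to 720 CPM (log2 fold change -0.29, adjusted p = 0.00403, edgeR), and Myf5, another bHLH factor of the muscle lineage, fell by 0.42. Srf, the factor that binds CArG boxes, rose by 0.24 (adjusted p = 0.00241). The gap of library 6 to the median of libraries 1 to 5 varied among these genes. Of the 19 tested, library 6 was the lowest of the horse serum group for 7 and the highest for 7. Myog was at 850 CPM beside 878 to 946 CPM, whereas Mef2c, a MEF2 factor, was at 71.5 CPM beside 409 to 434 CPM. Mef2a, another MEF2 factor, went the other way, at 339 CPM beside 193 to 244 CPM. Myf6, another myogenic bHLH factor, was at 0.41 CPM beside 1.93 to 3.36 CPM.

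Among the 11 myotube markers, 1 was higher and 2 were lower with STEM over 12 libraries, and 1 and 7 without library 6, and the median log2 fold change stood at -0.06 and -0.18. Acta1 fell by 0.25 and Tnnt3 by 0.17 on the log2 scale without library 6 (adjusted p = 2.71e-04 and 0.0142, edgeR), in the same fit in which 5 light chain and kinase genes were lower. Mymk, which encodes the fusion protein myomaker, rose in both fits, by 0.36 over 12 libraries (adjusted p = 3.61e-04). Des, the intermediate filament protein desmin, passed the test in neither (log2 fold changes -0.02 and -0.08).

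Markers of cardiac muscle were checked because Myl2, Myl3 and Myl4 also serve the heart. Of 11 such genes, 6 were tested, and 3 were lower with STEM over 12 libraries (Tnni3, Pln and Tnnt2) and 5 without library 6 (also Actc1 and Myh6). Some of these genes were abundant. Tnnt2, the cardiac troponin T that developing skeletal muscle also makes, had a median of 1024 CPM in the horse serum group against 812 CPM in the STEM group (687 CPM in library 6). Actc1, cardiac actin, likewise made in developing muscle, had medians of 1482 and 884 CPM (325 CPM in library 6). Its log2 fold change was -0.46 over 12 libraries (adjusted p = 0.275, edgeR) and -0.67 without library 6 (adjusted p = 3.82e-04). Others were low or absent, with Tnni3 (cardiac troponin I) and Pln (phospholamban) at most 2.46 and 4.87 CPM in any library, Tbx5 at 0 counts, and Nppa and Ryr2 at no more than 3 counts.

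Markers of myoblasts and reserve cells were lower for 6 of 8 genes in both fits, among them Vcam1, Cd34, Spry1 and Itga7, which fell by 0.80, 0.75, 0.63 and 0.26 on the log2 scale over 12 libraries. Notch3 went the other way, with a log2 fold change of 0.42 over 12 libraries (adjusted p = 0.108, edgeR) and 0.58 without library 6 (adjusted p = 0.0253), and Pax7 passed the test in neither fit (-0.04 and -0.10). Proliferation markers were lower for 10 of 12 in both fits, and Ccne2, Aurkb, Birc5 and Top2a fell by 0.83, 0.86, 0.75 and 0.65 over 12 libraries. Of all tested genes, 17.4% were lower over 12 libraries and 24.5% without library 6. Of 7 smooth muscle markers 6 were tested, and 3 (Cnn1, Acta2 and Tagln) were higher and 1 (Lmod1) lower in both fits. Fibroblast markers summed to 19.7 to 28.0 CPM in libraries 1 to 5, 32.4 CPM in library 6 and 35.5 to 39.2 CPM with STEM. Of 4 tested, 2 were higher over 12 libraries (Pi16 and Dpt) and 3 without library 6, where Pdgfra had a log2 fold change of 0.67 (adjusted p = 2.48e-06, edgeR). Adipocyte, endothelial and leukocyte markers each had 1 tested gene, of which the adipocyte gene Pparg was lower with STEM, and Plin1, Kdr, Emcn, Adgre1 and Cd3e had 0 counts in all 12 libraries. The part of these cell states in the light chain values was not tested.

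The tested gene with the profile nearest to each member was found among 9337 genes with a mean of at least 10 CPM, as the smallest root mean square difference in centred log2 CPM over the 12 libraries. These profiles share the group difference and the low library 6, so likeness is a description. The nearest gene was Mdh1, a malate dehydrogenase, for Mylpf (0.049 log2 units), Fam162a for Myl1 (0.081), Tnni2, the fast troponin I, for Myl4 (0.073) and Neb, the thin filament protein nebulin, for Myl6b (0.16). It was Fsd1l for Mylk2 (0.087) and Pdk2 for Mylk4 (0.13). For Myl2 it was Car9, a carbonic anhydrase, at 0.32. Car9 had a log2 fold change of -2.00 over 12 libraries and -2.24 without library 6, beside -2.03 and -2.27 for Myl2. The difference is not scaled to a gene's spread, so the distance of Myl2 cannot be compared with those of members that vary less. Among the members, Mylpf and Myl4 were nearest to each other (0.14), and Myl2 was 0.88 from its nearest, Myl1.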

How the data were processed

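RNA sequencing of 6 libraries per group was analysed, with groups taken from the sample titles. Per the labels and the study's methods, the authors prepared stranded, ribosomal RNA-depleted total RNA libraries and deposited raw read counts per Ensembl gene on GRCm38, without normalization. The submitters' processing notes name STAR 2.7.3a, featureCounts 1.6.3 and DESeq2 1.26.0. Whether counting used the strand is not given in the sources used here.

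Counts were fitted across all genes with edgeR 4.0.16 in R 4.3.3 (TMM, filterByExpr, robust glmQLFit and glmQLFTest), with Benjamini-Hochberg adjustment and calls at 0.05. The paper's tool, DESeq2 (1.42.0), and limma-voom (3.58.1) were alternatives, as were other scalings and filters and leaving out each library. CPM of all libraries use the 12-library TMM factors (0.969 to 1.07). Log2 CPM used a prior count of 2. Symbols, coordinates and union exon lengths came from GENCODE, which held 55227 of the listed genes. No libraries in a group were near-identical (chi-square per degree of freedom 3.63 to 77.7 over 30 pairs). Only the tests of fold change were run on simulated counts, which held no outlying library, unlike these data.

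Members and gene lists were chosen with earlier results of these data known. Genes named beside the members were, per list, those called in either fit with the 4 lowest p-values, those above 1000 CPM, and the nearest profile of each member. Of the genes this rule names, 1 transcription factor gene is not reported here. Myl7, Myl9, Mylk3, Myh6, Mef2a, Mef2c, Myf6, Notch3, Pax7 and the markers at or near 0 counts were named after their values were seen.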

Additional observations from a re-analysis of the deposited data

Results flagged for a closer look

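Of 14 groups checked (7 tested members in 2 groups of 6), 4 had a library set far from the rest. All 4 were horse serum library 6, as the lowest of its group. The groups share the same libraries, so the checks are not independent. Library 6 had also been singled out beforehand, so the flags only describe that library. Its values were 677 CPM for Myl1, 4.36 CPM for Myl2, 303 CPM for Myl4 and 1371 CPM for Mylpf. The gap to the next library made up 0.859, 0.710, 0.786 and 0.853 of the group's range, above Dixon's critical value for 6 samples. For Myl6b, Mylk2 and Mylk4 library 6 was also the lowest, but its gap did not reach that value.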

How the results depend on the processing

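Of 7 tested members, 1 was called over 12 libraries, 0 with limma-voom, and 5 with limma-voom with library quality weights, where library 6 had a weight of 0.111. Leaving out each library in turn gave 1 to 5 called members, the 5 arising without horse serum library 6 alone. Myl2 stayed lower in all 20 alternatives (log2 fold change -2.27 to -1.603) and lost its call only with limma-voom. Myl1, Myl4, Mylpf and Mylk2 kept their direction in all 20 and passed the test in 2, without library 6 and with quality weights. The log2 fold change of Myl6b turned to -0.027 with quality weights and spanned -0.027 to 0.20 with single libraries left out. That of Mylk4 turned to -0.079 with quality weights and spanned -0.071 to 0.12, turning without horse serum library 4 or 6 or STEM library 12. Neither gene passed the test in any alternative (adjusted p from 0.526 to 0.986). The number of called genes over the whole table ranged from 4459 to 7283. Shares by coding transcript length were added after the data were seen. No paired analysis was possible because the groups share no library numbers. Depth limits Myl3, with 2 to 20 counts per library.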
